A study of Mus musculus with 2 samples.

Results

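The globins are the protein chains of haemoglobin, and 5 globin genes of the mouse were followed here: the embryonic chains Hbb-bh1, Hbb-y and Hba-x and the adult chains Hba-a1 and Hbb-b2. They were chosen by name, through the probe sets whose platform annotation gives exactly 1 of these symbols. That rule found 10 probe sets for the 5 genes, out of 34945 probe sets with 1 symbol for 18193 genes. RNA came from livers at E12.5, the embryos being C57Bl6 with a wild type genotype, and 20 ng of total RNA per sample was amplified, labelled with biotin and hybridised to Affymetrix mouse arrays. The first sample was mesothelial cells, the epithelial sheet on the surface of the liver, sorted by FACS with antibodies to podoplanin (Pdpn) after a trypsin-EDTA digest. The second was liver cells, equal to the first in strain, genotype and age. Whether Pdpn+ cells were still among them is not stated. One free-text note in both sample records speaks of embryos at a stage before their own genes are switched on, which goes against E12.5, the age given in the other fields and used here. Each group had 1 array, so nothing was tested, no error between embryos or sorts can be given, and every value describes these 2 arrays.

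Haemoglobin is a tetramer that pairs alpha-like with beta-like chains, each holding a haem group, and the genes lie in an alpha cluster and a beta cluster on different chromosomes. Red cells of the mouse arise in waves. Primitive red cells form in the yolk sac, mature in the circulation and carry the embryonic chains, while definitive red cells, made in the fetal liver, carry mainly the adult chains. The embryonic liver thus holds both the erythroblasts it produces and the primitive cells that pass through it in the blood. Mesothelial cells are not a known site of globin synthesis.

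Embryonic globin RNA was lower in the sorted mesothelial cells than in liver cells, but by very different amounts for the different chains. The liver array was 10.5-fold brighter for Hbb-bh1 and 3.19-fold brighter for Hba-x. For Hbb-y it was 1.29-fold brighter by the brightest probe set and 2.88-fold by another. The adult gene Hbb-b2 read alike on both arrays as deposited, by its brighter probe set. Other adult globin sets did not: those naming several adult genes, and that of Hba-a2, were 1.70-fold to 4.16-fold brighter on the liver array. A gene was counted only above a floor, that is where at least 1 of its values reached the median of its array, 65.8 in mesothelial and 42.3 in liver cells. Differences of 2-fold or more are called liver-sided or mesothelial-sided here after the brighter array. Of the 4 globins that passed the floor, 2 were liver-sided and 0 mesothelial-sided. Over all 12018 genes that passed it, 3.83% were liver-sided and 45.4% mesothelial-sided. The median log2 difference, mesothelial minus liver, was -0.37 over the 5 globins, of which Hba-a1 gave no measurable level, and 0.66 over all genes. Over the 4 globins that passed the floor it was -1.02, and over all genes that passed it 0.90. Of the 10 probe sets, 9 passed the floor, and the 7 of Hbb-bh1, Hbb-y and Hba-x among them were all dimmer on the mesothelial array.

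**Figure D1:**
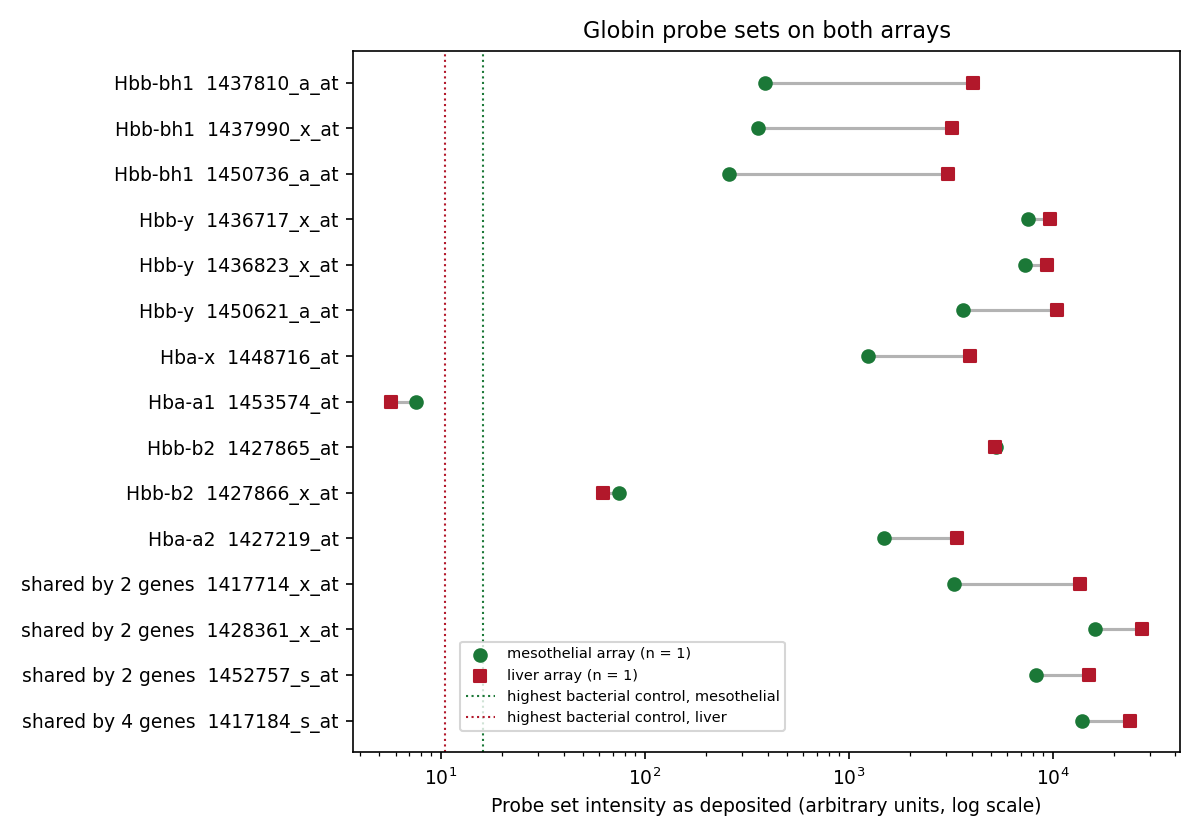
Intensity of each globin probe set (horizontal axis, arbitrary units, log scale) on the mesothelial array (circles) and the liver array (squares), 1 array each; dotted lines mark the highest of 27 bacterial control probe sets, 16.2 and 10.5. The squares of Hbb-bh1 lie furthest from its circles, both points of the first Hbb-b2 probe set coincide, and those of Hba-a1 lie below the control level.

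Some globin probe sets cannot be tied to 1 gene, because the copies of a globin gene are nearly identical. Affymetrix names ending in _x_at mark sets in which some probes match other transcripts, and names ending in _s_at mark sets whose probes are shared by several transcripts. Names ending in _a_at mark sets that match several transcripts of 1 gene. Of the 10 globin probe sets, 4 end in _x_at and 0 in _s_at. Intensities of different probe sets were not set against each other as levels, since each has its own affinity.

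Hbb-bh1 encodes the betaH1 chain, a beta-like chain of primitive red cells. Probe set 1437810_a_at, the one with the highest mean, read 387.9 on the mesothelial array and 4066 on the liver array. Probe set 1450736_a_at read 260.3 and 3072, and the cross-matching probe set 1437990_x_at read 358.7 and 3201. All 3 were thus much dimmer in mesothelial cells, yet each stayed well above the control level of 16.2 there. The log2 differences were -3.39, -3.56 and -3.16, with an SD of 0.20 between the probe sets, and the folds were 10.5, 11.8 and 8.92 in favour of liver cells. The SD between probe sets of one gene, from the variance pooled over 5323 genes, was 0.70, so the SD of the Hbb-bh1 probe sets was below this pooled value. Only 14 of those 12018 genes lay further to the liver side than Hbb-bh1, and at a 4-fold threshold it was the 1 globin counted, against 1.07% of all genes.

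Hbb-y encodes the epsilon-y chain, the other embryonic beta-like chain, which primitive red cells carry for longer as they mature. The cross-matching probe sets 1436717_x_at and 1436823_x_at read 7560 and 7357 in mesothelial cells and 9745 and 9413 in liver cells. Probe set 1450621_a_at, which has no such mark, read 3627.5 against 10446. All 3 were lower in mesothelial cells, but by different amounts. The log2 differences were -0.37 and -0.36 for the cross-matching sets and -1.53 for the other, so the gene passed the 2-fold threshold by 1 of its 3 probe sets, with an SD of 0.67 between them. Relative to the median of all genes, the brightest set lay at -1.03. On all 3 sets Hbb-y was thus far above the control level in the sorted cells.

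Hba-x encodes the zeta chain, the embryonic alpha-like chain that pairs with the embryonic beta-like chains. Its single probe set, 1448716_at, read 1236.5 on the mesothelial and 3945 on the liver array, a log2 difference of -1.67, or -2.34 relative to all genes. The zeta chain was therefore 3.19-fold dimmer in the sorted cells, and its difference lay between those of Hbb-bh1 and Hbb-b2. With 1 probe set there is no second measurement of this gene on the arrays.

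Hba-a1 encodes an adult alpha chain and has a near-identical neighbour, Hba-a2. The 1 probe set that names Hba-a1 alone, 1453574_at, read 7.6 in mesothelial and 5.7 in liver cells. Both are below the highest bacterial controls of their arrays, so no fold is given, and the reading says nothing of adult alpha chain RNA as a whole. Probe sets that name Hba-a1 together with Hba-a2 were among the brightest: 1428361_x_at read 16167 in mesothelial and 27470 in liver cells, the latter being the highest value on the liver array. Probe set 1452757_s_at read 8266.5 and 15109, and 1417714_x_at read 3277 and 13646. Their log2 differences were -0.76, -0.87 and -2.06, all on the liver side, and only the last passed 2-fold. They cannot be given to one gene and are in no count of the 5 globins. Hba-a2 alone, not one of the 5, was named by 1427219_at, which read 1486 and 3395, a difference of -1.19. So each of the 5 alpha-like probe sets above the control level was lower in mesothelial cells.

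Hbb-b2 encodes an adult beta chain known as beta-minor. Probe set 1427865_at read 5251 in mesothelial and 5235 in liver cells, a log2 difference of 0.00. Probe set 1427866_x_at, to which the annotation gives the same transcript, read 75.2 and 62.1, a difference of 0.28, with an SD of 0.19 between the sets. As deposited, neither set was thus dimmer in the sorted cells, whereas all those of the embryonic chains were. The second set is a cross-matching one and read not far above the array medians of 65.8 and 42.3. Sets of the adult alpha chains above the control level were dimmer in the sorted cells too. As background, Hbb-b1 and Hbb-b2 are the adult beta genes of one haplotype of the mouse beta cluster, and C57BL/6 mice carry another, whose adult beta genes are called Hbb-bs and Hbb-bt. Which of these transcripts the Hbb-b2 probe sets bound in these embryos was not tested. Probe set 1417184_s_at, which names all 4 genes, read 13975 in mesothelial and 24013 in liver cells, a difference of -0.78 that is not given to one gene. The shared set was thus 1.72-fold brighter on the liver array, while the brighter set naming Hbb-b2 alone differed by 0.00 on the log2 scale.

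The embryonic beta chains differed unequally from Hbb-b2. A scale factor between the arrays cancels when the difference of one probe set is taken from that of another. Over the 6 pairings of an Hbb-bh1 with an Hbb-b2 probe set, the log2 difference of Hbb-bh1 minus that of Hbb-b2 ran from -3.84 to -3.16, which is 14.3-fold to 8.95-fold. For Hbb-y the 6 pairings gave -1.80 to -0.36, or 3.49-fold to 1.28-fold. Both embryonic genes lay on the liver side of Hbb-b2 in these pairings. Against the shared adult beta set, at -0.78, all 3 Hbb-bh1 sets also lay on the liver side, but of the Hbb-y sets only 1 did, and the cross-matching pair at -0.37 and -0.36 lay on the mesothelial side. With 1 array per group the variation of these ratios between samples is unknown. In bulk samples, fewer cells of a type and less RNA per cell cannot be told apart.

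**Figure D2:**
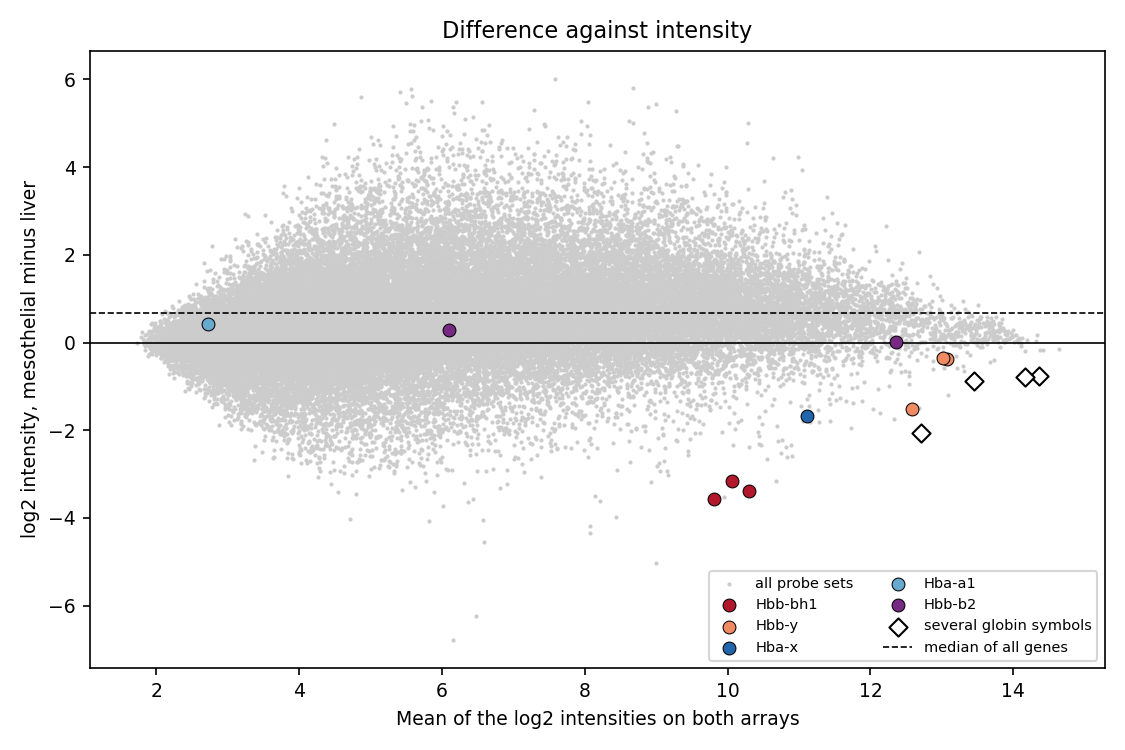
log2 intensity, mesothelial minus liver (vertical axis) against the mean log2 intensity of both arrays (horizontal axis); grey points are all probe sets, coloured points the globin probe sets, diamonds those naming several globin genes, and the dashed line is the median of all genes, 0.66. The Hbb-bh1 points lie near -3.39 at the lower edge of the cloud, while the brightest globin sets lie closer to 0, where the cloud itself is narrow.

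Bright probe sets differed less between the arrays than dimmer ones, and this moved with the globin values. Over the 491 probe sets with a geometric mean intensity of at least 5000, the log2 differences had an interquartile range of 0.50 and 1.02% were liver-sided. Over the 6400 between 500 and 5000, the interquartile range was 0.99 and that share was 2.28%. These limits were set after the data were seen. Of the 8 globin probe sets in the brighter range, counting those shared between genes, 2 were liver-sided, and of the 5 in the lower range all 5 were. The brighter range holds Hbb-y, the first Hbb-b2 set and the shared adult sets, and the lower range Hbb-bh1, Hba-x and Hba-a2. The part of intensity in the smaller differences of the bright sets was not tested.

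The arrays were not on one scale, and the size of each difference depended on how they were scaled. As deposited, the typical gene was 1.58-fold brighter on the mesothelial array. Centring each array on the median of all its probe sets moved Hbb-bh1 to -4.03, Hba-x to -2.31 and Hbb-b2 to -0.63, and brought Hbb-y just past 2-fold. Then 3 of 4 globins were liver-sided, against 9.25% of genes. Centring on 7 reference genes gave -4.16 for Hbb-bh1, -2.44 for Hba-x, -1.13 for Hbb-y and -0.76 for Hbb-b2. Again 3 of 4 were liver-sided, against 11.1% of genes. Both centrings shift every difference by one amount and cannot change the order of the chains. Under quantile normalization, which can, Hbb-bh1, Hba-x, Hbb-y and Hbb-b2 kept this order from the lowest difference to the highest. The direction of Hbb-b2, by contrast, turned from level to the liver side. By quantile normalization Hbb-y was at -0.73, so only 2 of 4 globins were liver-sided, against 11.1% of genes.

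**Figure D3:**
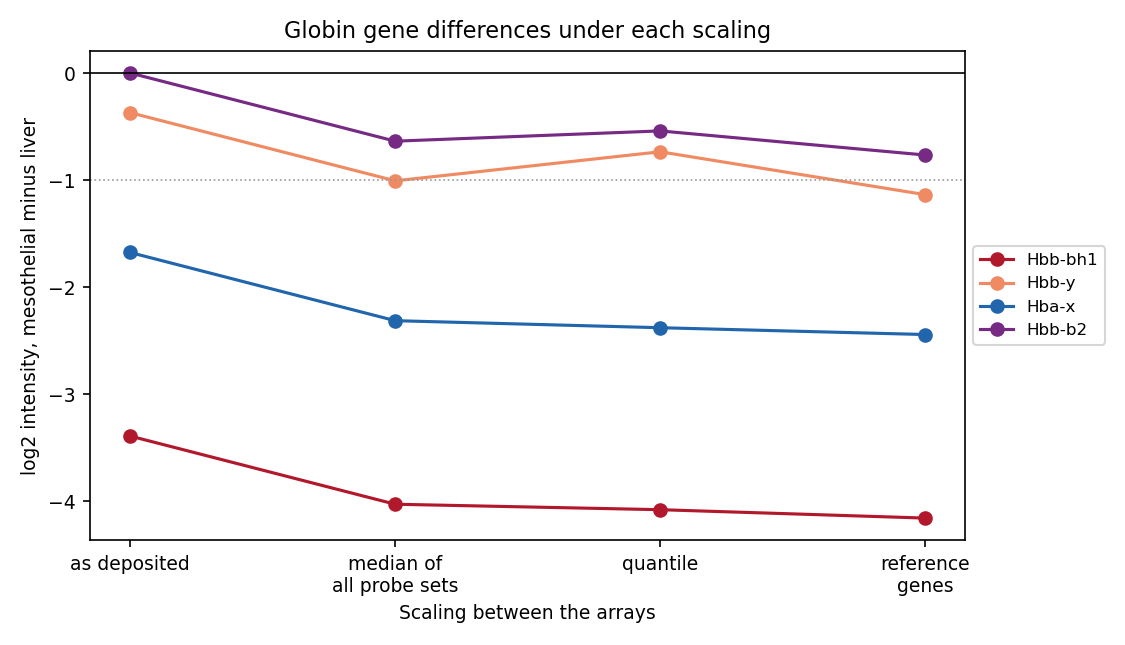
Difference in log2 intensity, mesothelial minus liver (vertical axis), of the brightest probe set of each globin above the floor under 4 scalings of the arrays (horizontal axis); the dotted line marks a liver array 2-fold brighter. Hbb-bh1 and Hba-x lie below that line throughout, Hbb-y crosses it, and Hbb-b2 stays above it.

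Upstream sequence was available from RefSeq (GRCm38.p6) for 3 of the 5 genes, which include the pair of embryonic genes of different clusters, Hba-x and Hbb-y, that were both on the liver side. The 150 bases before each start site are shown so that the promoter letters shared by the chains can be compared. Capitals mark 3 motifs: the letters CCAAT, which CCAAT factors bind in globin promoters, the letters CACCC, which Klf1 and its relatives bind, and the letters TATAA, which the TATA-binding protein binds. Both strands were searched, also for the letters AGATAA of GATA factors, and the matches do not overlap. Hba-x lies at chr11:32276450-32276599 on the plus strand, Hba-a1 at chr11:32283522-32283671 on the plus strand and Hbb-y at chr7:103853208-103853357 on the minus strand, and each is written 5′ to 3′ towards its gene.
Hba-x: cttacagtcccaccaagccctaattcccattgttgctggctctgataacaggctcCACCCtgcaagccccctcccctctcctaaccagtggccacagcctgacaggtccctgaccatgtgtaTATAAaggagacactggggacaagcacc
Hbb-y: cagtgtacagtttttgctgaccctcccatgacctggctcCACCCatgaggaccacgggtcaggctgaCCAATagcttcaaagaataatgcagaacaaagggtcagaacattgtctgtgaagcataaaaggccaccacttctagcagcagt
Hba-a1: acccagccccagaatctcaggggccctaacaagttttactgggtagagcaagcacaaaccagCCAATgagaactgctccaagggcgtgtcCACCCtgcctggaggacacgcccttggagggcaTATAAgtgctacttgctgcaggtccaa

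CACCC was found in all 3 windows, against 37.4% of 32851 promoters of the same length. CCAAT was found in Hbb-y, from 83 bases before the start, and in Hba-a1, from 88 bases before it, against 24.5% of promoters. TATAA was found in Hba-x and Hba-a1, from 28 and 27 bases before the start, against 14.2%. Hbb-y holds the close string CATAAA, which was not searched for, so a lack of a site for the TATA-binding protein is not shown there. AGATAA was in none of the 3 windows, and in 5.65% of promoters. The close string TGATAA is in the Hba-x window and was not searched for, so a lack of GATA motifs is not shown. These are matches of letters and not shown sites of binding. The upstream windows of Hba-a1 and Hba-a2 were equal at 147 positions when slid by up to 3 bases, while Hba-x and Hbb-y were equal at 50 of 150.

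Genes of haem synthesis, which supplies the group that each globin chain holds, were also mostly lower in mesothelial cells. Of 11 genes past the floor, 6 were liver-sided and 1 mesothelial-sided, against 3.83% and 45.4% of all genes. The median difference was -1.02. Alas2, the first enzyme of the pathway in red cells, read 549.9 against 4892, 8.90-fold brighter on the liver array. Uros, a later enzyme of the pathway, was 2.96-fold brighter there, and Slc25a37, which imports iron into mitochondria, 2.54-fold. Slc25a38, which brings glycine into mitochondria, was 2.38-fold brighter there. The exception was Alas1, the form of the first enzyme in other tissues, which was 2.48-fold brighter in the sorted cells. Of the genes dimmer in the sorted cells, Urod and Cpox differed least by the probe sets used, at -0.58 and -0.59. Their other sets reached -1.52 and -1.49, past 2-fold, while sets of Fech, Ppox and Abcb10 reached -0.07, -0.17 and 0.08. By the probe set used, Alas1 no longer passed 2-fold under any of the 3 scalings, nor the higher floor at the 75th percentile. Its other set was at 1.91 as deposited. Under the scalings 9 or 10 of the 11 genes were liver-sided, against 9.25% to 11.1% of all genes.

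Genes of the red cell membrane had a median of -1.31. Of the 14 past the floor 8 were liver-sided and 0 mesothelial-sided, against 3.83% and 45.4% of all genes. Epb42, which anchors the membrane skeleton, was 18.3-fold brighter on the liver array by its brightest set, further than Hbb-bh1. Its 2 probe sets were at -4.19 and -2.95, and the latter was less liver-sided than every Hbb-bh1 set. Rhd, a blood group protein, was 6.04-fold brighter on the liver array and Dmtn, an actin-bundling protein of the skeleton, 4.68-fold. Sptb, beta-spectrin, was 3.85-fold brighter there by its brightest set. Its 2 probe sets went opposite ways, at -1.945 and 0.63, with an SD of 1.82. Slc4a1, the anion exchanger band 3, still read 3902 in mesothelial cells against 11031. Tmod1, which caps actin filaments, went furthest the other way at 0.94, and Aqp1, a water channel, was at -0.01.

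Regulators of the globin genes lay on both sides. Of 27 past the floor, 2 were liver-sided, 8 mesothelial-sided and 17 within 2-fold, and the median difference of the 28 measured was 0.31. Over all genes past the floor 3.83% were liver-sided and 45.4% mesothelial-sided, so mesothelial-sided regulators fell short of the share of all genes. The liver-sided pair was Nfe2, which binds the control region of the beta cluster, 2.76-fold, and Sox6, which represses Hbb-y in definitive cells, 2.21-fold. Some activators of erythroid genes were within 2-fold: Klf1, needed for adult beta globin, read 2494 against 2899, Gata1 read 2464 against 2014 and Tal1 read 2468 against 2121. Bcl11a, a repressor of embryonic globins, read 1957 in mesothelial and 1111 in liver cells by its brightest probe set, but its 7 sets ran from -0.68 to 0.82. Mesothelial-sided were the nuclear factor gene Nfia, 5.09-fold, whose 6 probe sets had an SD of 1.44, and Hmga2, a chromatin protein of fetal cells, 3.18-fold. Nr2c1 and Nr2c2, nuclear receptors that bind embryonic globin promoters, were 2.52-fold and 2.27-fold brighter in the sorted cells by their brightest sets. The 5 sets of Nr2c1 ran from 0.43 to 2.84, and the 6 of Nr2c2 from -0.25 to 1.22. The RNA-binding protein gene Igf2bp3 was 2.49-fold brighter in the sorted cells. The other 3 were Zfpm1, the partner of Gata1, Igf2bp1 and Hic2. Many of these genes are active outside red cells too. After median centring the split turned, with 6 liver-sided and 2 mesothelial-sided, against 9.25% and 23.9% of all genes. With the median over probe sets 5 were mesothelial-sided, against 38.4% of all genes.

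Genes that clear haemoglobin and haem went different ways. Of 7 past the floor, 1 was liver-sided and 2 mesothelial-sided, against 3.83% and 45.4% of all genes. The median difference of the 8 measured was 0.52. Blvrb, a reductase that is abundant in red cells, was 3.89-fold brighter on the liver array. Lrp1, a receptor that takes up haem bound to haemopexin, was 12.6-fold brighter in the sorted cells, and Hmox1, the inducible haem oxygenase, 2.04-fold. Hp, haptoglobin, the plasma protein that binds free haemoglobin, read 44.6 against 86.4. Under each of the 3 scalings the split turned to 2 liver-sided and 1 mesothelial-sided. Of all genes, 9.25% to 11.1% were then liver-sided and 20.7% to 23.9% mesothelial-sided. The median turned to -0.12 by median centring, -0.25 by reference genes and -0.30 by quantile normalization.

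**Figure D4:**
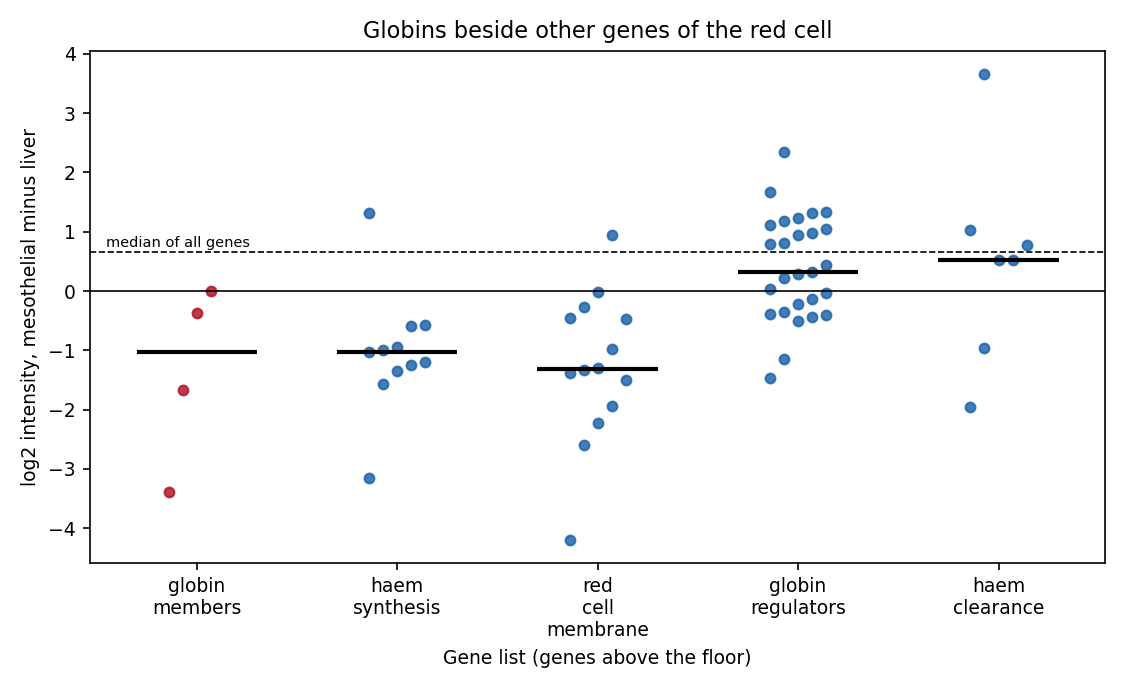
Difference in log2 intensity, mesothelial minus liver (vertical axis), of each gene above the floor in 5 gene lists (horizontal axis); bars are medians over the points and the dashed line is the median of all genes, 0.66. The globins (median -1.02 over 4), haem synthesis and red cell membrane genes lie mostly below 0, and the regulators on both sides.

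Markers of some cell types moved with the groups. All 7 mesothelial markers past the floor were mesothelial-sided, among them Pdpn, the sorted protein's gene, by 38.8-fold, and Msln lay under the floor. Of 6 erythroid markers measured, 4 were liver-sided and none was at control level on the mesothelial array, where their summed intensity was 9809 against 22826 in liver cells. Hepatoblast markers summed to 72594 in mesothelial and 47699 in liver cells, and 0 of 8 were at control level in the sorted cells. Their median relative to all genes was 0.00, so they stood where the typical gene did. All 4 megakaryocyte markers measured were mesothelial-sided, as were 6 of 7 macrophage markers past the floor, and 6 of 7 granulocyte markers were liver-sided. For each of these counts, the shares over all genes past the floor were 45.4% mesothelial-sided and 3.83% liver-sided. Of 6 endothelial markers, 3 were mesothelial-sided, near the 45.4% of all genes, with a median of 0.20 relative to all genes. The part of red cells or their free RNA in the globin values of the sorted sample was not tested.

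Among 2285 genes with both values in the top 10% of their arrays, those with the difference closest to that of each globin were listed. With 2 arrays the likeness is only the gap between log2 differences. For Hba-x these were Hemgn, a nuclear protein of blood cells, at -1.82, Slc4a1 at -1.50 and Brpf3, a chromatin protein, at -1.44. For Hbb-bh1 they were Blvrb at -1.96, Hemgn and Hba-x, with gaps of 1.43, 1.57 and 1.72. These gaps are wide because the limit on brightness leaves out strongly liver-sided genes, such as Alas2 at -3.15 and Rhd at -2.60, which lie closer. Hbb-y, by its brightest set, a cross-matching one, lay beside Ndufb10, Ubxn1 and Armc1 at -0.37 each. Hbb-b2 lay beside Ddx42, Suz12 and Mcm7 at 0.00 to 0.01. These neighbours are genes that many cell types express. The unmarked Hbb-y set, at -1.53, was nearer to Slc4a1 at -1.50 than to Ndufb10, Ubxn1 or Armc1.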

How the data were processed

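The deposited file gives a linear intensity for each probe set, as its values show, on 1 mesothelial and 1 liver array. RMA and Partek are named in the submitters' processing notes, with no role or order, and no source used here states a scaling between the arrays. log2 was taken, and differences are mesothelial minus liver. Of 45101 probe sets, 64 are controls, and of the others 34945 had 1 gene symbol in the platform annotation, 932 several and 9160 none. For each gene the probe set of highest mean log2 value was used. No test was made, since each group had 1 array, and the number of arrays limits the precision. The control level is the highest of 27 probe sets for bacterial transcripts. Amplification from 20 ng of RNA can alter ratios between transcripts.

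The members and gene lists were chosen with earlier results of these data known. All members were named, and of each list up to 5 genes above the floor with the largest differences and 2 furthest the other way, or fewer; of the regulators, any above the floor. Some listed genes are not reported here. Alternatives were 3 scalings, the median over probe sets, leaving out _s_at and _x_at sets, low values set to the control level, other floors and a 4-fold threshold. The differences and scalings were tested on simulated data with 200 changed probe sets. Python 3.11.15, numpy 2.4.6 and pandas 2.3.3 were used.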

Additional observations from a re-analysis of the deposited data

How the results depend on the processing

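A value was taken as moved where it shifted by more than 0.70, the pooled SD between probe sets of one gene, and a count where it changed by more than 1.5 times. Of 66 comparisons of the main globin values with an alternative, 55 stayed within that and 11 moved. These counts are no measure of robustness, since many outcomes were fixed in advance. Each centring shifts all gene differences by the same amount and cancels in a difference between genes. A gene with 1 probe set cannot move under the median over probe sets. Setting low values to the control level leaves bright sets as they are. Hbb-bh1 and Hba-x kept their direction under each alternative run. Centring on reference genes, which lowers every difference alike, gave -4.16 for Hbb-bh1, -2.44 for Hba-x, -1.13 for Hbb-y and for the median, -0.76 for Hbb-b2. For Hba-a1 it gave -0.35 in place of 0.42, and neither is a measured difference, since both readings are below the control level. Quantile normalization gave -2.38 for Hba-x. Without _s_at and _x_at probe sets, Hbb-y and the median were -1.53, and Hbb-y minus Hbb-b2 was -1.53. At a 4-fold threshold 1 globin was counted in place of 2. Of the values for single probe sets and gene lists, 53 moved and 119 did not. No paired analysis was possible because each group has 1 array. Signal over background thus limits Hba-a1.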
